A study of Homo sapiens with 60 samples.

Results

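The keratins described here are the genes whose symbols read KRT followed by a number and at most 1 letter. This rule matched 54 of the 19712 genes in the deposited tables: 28 keratins of type I, 25 of type II, and KRT222, which is of neither type. RNA was sequenced from 60 libraries of 4 human non-small cell lung cancer lines that carry mutant EGFR, the epidermal growth factor receptor: PC9, HCC827, H1975 and HCC2935. Each line was studied in 5 arms with 3 libraries in each, and the labels call the replicates biological triplicates. DMSO, the solvent, was given for 24 h to cells kept without drug for 21 days. Acute osimertinib was 500 nM of this inhibitor of mutant EGFR for 24 h, after the same time without drug. DTP stands for drug-tolerant persister, the cells that remained after 21 days in 500 nM osimertinib. For the washout arms, persister cells were rinsed with PBS and kept without drug for 24 h (short washout) or longer (long washout). Long washout took 7 days in PC9, 4 days in HCC827, 3 days in H1975 and 10 days in HCC2935, so its length and the line cannot be told apart. Each line is an established culture, and the results are about these 4 lines. Libraries held 17.7 to 49.1 M (mega) estimated counts, with a median of 30.1 M: 34.7 to 47.1 M in PC9, 17.7 to 25.1 M in HCC827, 38.7 to 49.1 M in H1975 and 18.6 to 25.6 M in HCC2935.

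Keratins are the proteins of the intermediate filaments of epithelial cells, and each filament is built from pairs of an acidic type I keratin and a basic type II keratin. Which pair a cell makes depends on its epithelium and layer: KRT8 and KRT18 with KRT7 and KRT19 mark simple epithelia such as those of the lung and its glands, and KRT5 and KRT14 mark the basal layer of stratified epithelia. KRT6A, KRT16 and KRT17 are known from wounded and stressed epithelium, and KRT4 and KRT13 from the upper layers of moist stratified linings such as the oesophagus.

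A keratin is called expressed when it was at or above 1 TPM (transcripts per M) in all 3 libraries of at least 1 of the 20 groups. By that rule 22 of the 54 keratins were expressed, 12 of type I and 10 of type II, and 16 of them reached 10 TPM in all 3 libraries of a group. KRT7, KRT8, KRT10, KRT15, KRT16, KRT18, KRT19 and KRT80 were expressed in all 20 groups. Another 5 were expressed in 1 line, among them KRT3, KRT6B, KRT20 and KRT23. The other 32 keratins, 16 of type I, 15 of type II and KRT222, were not expressed; the highest value among them was 1.38 TPM of KRT9 in PC9 short washout replicate 3. None of the 54 was at 0 counts in every library. Per library, 8 (HCC827 DMSO replicate 2) to 20 keratins (PC9 short washout replicate 1) were at or above 1 TPM.

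**Figure D1:**
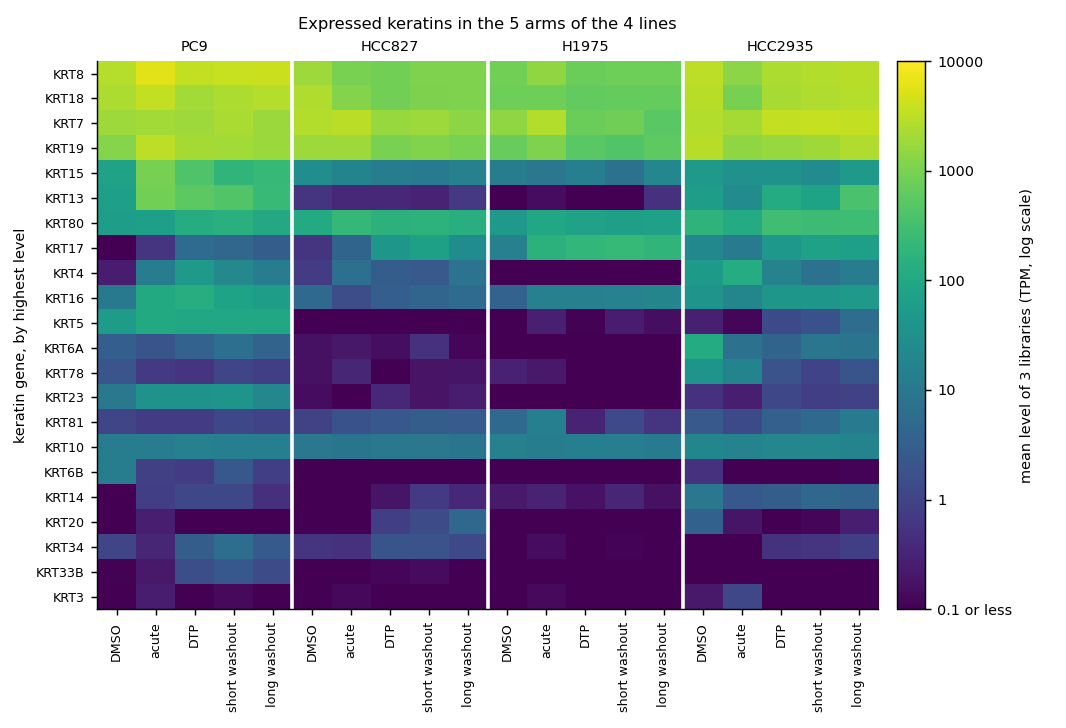
Mean level of each expressed keratin (vertical axis, ordered by highest level) in the 5 arms of the 4 lines (horizontal axis); colour gives the mean of 3 libraries in TPM on a log scale, with 0.1 TPM or less drawn as 0.1. KRT8, KRT18, KRT7 and KRT19 are high in all 20 groups, while keratins such as KRT13, KRT4 and KRT6A are high in some lines and arms.

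Several keratins resemble other sequences closely, which limits how surely reads are shared out between them. In GENCODE release 29 the names of 50 pseudogenes derive from KRT8 and 68 from KRT18, and KRT16, KRT17 and KRT19 have 6, 8 and 5. KRT6A and KRT6B are nearly alike, as are KRT14, KRT16 and KRT17. KRT8 and KRT18 lie side by side on opposite strands and overlap by 1.006 kb. KRT81 overlaps KRT86 on the opposite strand and KRT7 overlaps it on the same strand, and KRT86 was not analysed here. Whether strand was used in counting is not given in the sources used here. In bulk RNA, fewer cells that make a keratin and less of its RNA per cell cannot be told apart, and this holds for every change below.

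KRT8, KRT18, KRT7 and KRT19 together made up 84.3 to 98.4% of all keratin TPM in a library, with a median of 94.6%. In PC9, all 54 keratins summed to 8562, 8532 and 8315 TPM in DMSO, 16691, 16129.5 and 17152 TPM in acute osimertinib and 10605, 10696 and 11235 TPM in DTP. HCC827 held 10056, 9356 and 7523 TPM in DMSO, 7600.3, 6468 and 7968 TPM in acute osimertinib and 5915, 3338 and 4736 TPM in DTP. In H1975 the sums were 4349.7, 3542 and 3928 TPM, 5699, 7296 and 6147 TPM and 3392, 2794 and 2749 TPM in the same arms. All acute libraries of PC9 and H1975 were above their DMSO libraries. DTP libraries were all above DMSO in PC9 and all below it in HCC827, H1975 and HCC2935. HCC2935 went from 12162, 12927 and 11459.6 TPM in DMSO to 6318, 6875 and 5727 TPM in acute osimertinib and 9869, 10209 and 11021 TPM in DTP, and its acute libraries lay below all other libraries of the line. As a share of the TPM summed over the 19712 genes, keratins took 0.957% in PC9 DMSO and 1.91% in PC9 acute osimertinib, against 1.39% and 0.727% in HCC2935. These sums have no test of their own.

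**Figure D2:**
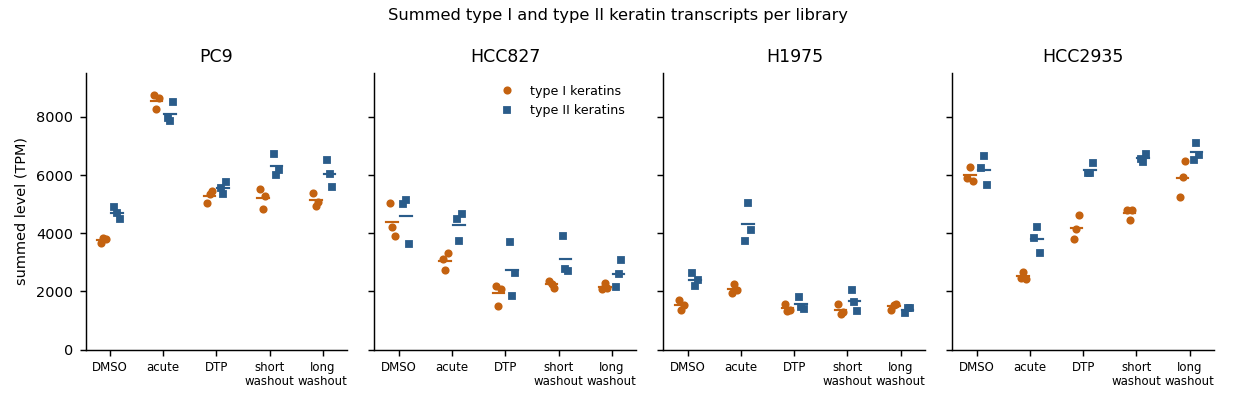
Summed TPM of type I and type II keratins in each library (vertical axis) by arm (horizontal axis) in the 4 lines; points are libraries and dashes the means of 3. PC9 and H1975 are highest in acute osimertinib, HCC2935 is lowest there, and HCC827 is lower in DTP than in DMSO.

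What acute osimertinib does to keratin transcripts was asked first, in each line against its own DMSO libraries. In PC9, most tested keratins rose: 16 were higher and 3 lower of 25 by edgeR's quasi-likelihood test at an adjusted p under 0.05, against 34.5% higher and 31.7% lower of all 14866 genes tested, and their median log2 fold change was 1.12 against 0.07 over all genes. The type I keratins made up most of this, with 11 higher and 1 lower of 15 (median 3.05), while type II keratins were split 5 and 2 of 10 (median 0.15). Of the 21 expressed keratins tested in PC9, 13 were higher and 3 lower (median 1.12). The other tested keratins there, all of type I, were not expressed. H1975 had 7 keratins higher and 0 lower of 14, against 27.8% and 23.8% of 15379 genes, with a median of 0.81 against 0.10. In HCC2935 the direction was the other way: 2 were higher and 12 lower of 22, against 24.9% and 22.2% of 14946 genes, with a median of -0.93 against 0.07. HCC827 had 2 higher and 3 lower of 14, against 18.7% and 20.2% of 14665 genes, shares near those of all genes, with a median of -0.11 against 0.02. By type, H1975 had 3 higher and 0 lower of 9 for type I (median 0.42) and 4 and 0 of 5 for type II (median 0.98). HCC2935 had 0 and 7 of 11 for type I and 2 and 5 of 11 for type II, and HCC827 1 and 2 of 9 and 1 and 1 of 5. Whether the acute effect differed between the lines was tested directly on 24 libraries: it did for 17 of 25 keratins, against 40.5% of 15970 genes. These fits hold all 4 lines, but some keratins had too few counts for a test within each. Of the expressed keratins whose effect differed here or in DTP, KRT4 and KRT34 lacked H1975, KRT14 lacked HCC827, KRT6A, KRT23 and KRT78 had PC9 and HCC2935 only, and KRT20 had HCC827 and HCC2935 only. For these a difference between lines is not one between 4 measured effects. Keratins that passed the filter on low counts in a line are counted here, so these counts describe them and are not a test of the family. With at least 10 counts asked in all libraries, the 17 became 8, since fewer keratins were then tested.

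The persister state was compared with the same DMSO libraries, which the acute comparison shares. PC9 had 15 keratins higher and 5 lower of 25 in DTP, against 35.7% and 33.5% of all genes, with a median log2 fold change of 0.71 against 0.06. Type I keratins again accounted for most, 12 higher and 1 lower of 15, and type II keratins had 3 higher and 4 lower of 10. Part of that type I count comes from keratins that were not expressed. Of the 21 expressed keratins tested in PC9, 12 were higher and 5 lower (median 0.60). HCC827 had 5 higher and 4 lower of 14, against 23% and 20.4% of all genes, and H1975 3 and 3 of 14, against 26% and 25.7%, again near those of all genes in H1975. In HCC2935, 6 were higher and 10 lower of 22, against 27% and 25.8%, with a median of -0.29 against 0.04. Without DMSO replicate 3 of HCC2935, these 16 calls became 10. By limma on log2 TPM the median of all genes shifted by over 0.1 in 3 comparisons, to 0.30 from 0.06 in PC9 DTP, to 0.19 from 0.04 in HCC2935 DTP and to 0.18 from 0.02 in PC9 long washout against DMSO, and changes given here are relative to the smaller values. On that scale the split was 17 higher and 3 lower in PC9 DTP, beside 45.9% and 23.6% of all genes, and 7 and 9 in HCC2935 DTP, beside 33.7% and 19.7%. The DTP effect differed between lines for 15 of 23 keratins, against 61.6% of 16001 genes, a like share, and for 7 with at least 10 counts in all libraries.

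**Figure D3:**
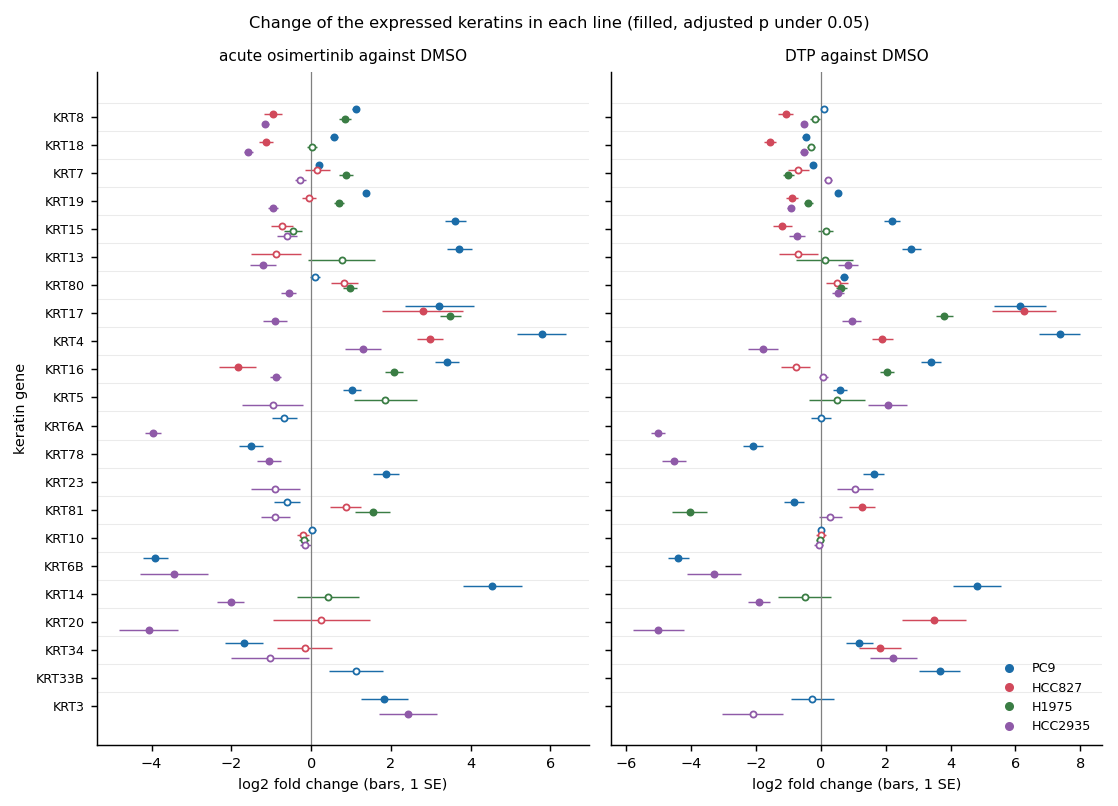
Log2 fold change of each expressed keratin that was tested (horizontal axis, bars 1 SE) in acute osimertinib and in DTP, each against DMSO, with lines by colour; filled points passed at an adjusted p under 0.05. In PC9 most points lie right of 0 in acute osimertinib, and in HCC2935 most lie left of 0.

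Of the simple epithelial keratins, KRT8 (type II) and KRT18 (type I) form the pair that simple epithelia make first. In PC9, KRT8 was at 2846, 2729 and 2650.5 TPM in DMSO, 5719, 5736 and 6127 TPM in acute osimertinib and 3449, 3406 and 3509 TPM in DTP. In HCC2935 it was at 3099.8, 3137 and 3129 TPM in DMSO, 1402, 1397 and 1288 TPM in acute osimertinib and 2278, 2327 and 2599.8 TPM in DTP. The acute libraries of PC9 were all higher and those of HCC2935 all lower than the DMSO libraries of their line. KRT8 rose in PC9 (log2 fold change 1.12 ± 0.08 SE, edgeR adjusted p = 8.2e-08, no overlap). It also rose in H1975 (log2 fold change 0.85 ± 0.15 SE, edgeR adjusted p = 0.00033, no overlap). In HCC827 it fell (log2 fold change -0.96 ± 0.22 SE, edgeR adjusted p = 0.0036, no overlap). HCC2935 fell as well (log2 fold change -1.15 ± 0.09 SE, edgeR adjusted p = 1.1e-07, no overlap). No overlap means here that all 3 libraries of one group lay above all 3 of the other. In DTP, KRT8 was lower than in DMSO in HCC827 (log2 fold change -1.08 ± 0.22 SE, edgeR adjusted p = 0.0014, no overlap) and HCC2935 (log2 fold change -0.53 ± 0.09 SE, edgeR adjusted p = 0.00013, no overlap). It did not pass in PC9 (log2 fold change 0.08 ± 0.08 SE, edgeR adjusted p = 0.37, no overlap). The PC9 DTP libraries were all higher than DMSO in TPM, by about as much as the median of all genes is shifted between TPM and the scaled counts that edgeR tests. Both effects differed between lines (edgeR adjusted p = 1.2e-09 for acute osimertinib and 0.00095 for DTP), the second with log2 fold changes from -1.08 ± 0.22 in HCC827 to 0.08 ± 0.08 in PC9, a call that ended without replicate 1 or 2 of each group, at most at 0.057.

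KRT18 moved less evenly with its partner. Its levels in PC9 were 2445, 2349 and 2353 TPM in DMSO, 3323, 3368 and 3815 TPM in acute osimertinib and 2068, 2011 and 2065 TPM in DTP. In HCC827 they were 2925, 2465 and 2179 TPM, 1203, 1053 and 1343 TPM and 779, 806 and 995 TPM in the same arms. Acute libraries of PC9 lay above DMSO and DTP libraries below it, and in HCC827 both treated arms lay below DMSO. KRT18 rose under acute osimertinib in PC9 (log2 fold change 0.58 ± 0.10 SE, edgeR adjusted p = 0.00014, no overlap). It fell in HCC827 (log2 fold change -1.14 ± 0.18 SE, edgeR adjusted p = 0.00019, no overlap) and HCC2935 (log2 fold change -1.57 ± 0.11 SE, edgeR adjusted p = 5.2e-08, no overlap). In DTP it fell in PC9 (log2 fold change -0.47 ± 0.10 SE, edgeR adjusted p = 0.00076, no overlap). DTP was also lower in HCC827 (log2 fold change -1.57 ± 0.18 SE, edgeR adjusted p = 1.3e-05, no overlap) and HCC2935 (log2 fold change -0.51 ± 0.11 SE, edgeR adjusted p = 0.0011, no overlap). H1975 passed in neither comparison (in acute osimertinib, log2 fold change 0.01 ± 0.13 SE, edgeR adjusted p = 0.94, overlapping libraries). The interaction test passed for KRT18 in both (edgeR adjusted p = 1.4e-08 for acute osimertinib, where the log2 fold changes were the ones just given, and 6.5e-06 for DTP). The ratio of KRT18 to KRT8 TPM, a description with no test, was 0.859, 0.861 and 0.888 in PC9 DMSO libraries, 0.581, 0.587 and 0.623 in acute osimertinib and 0.60, 0.59 and 0.589 in DTP. In H1975 it was 0.948, 0.892 and 1.0 in DMSO, 0.549, 0.529 and 0.507 in acute osimertinib and 0.812, 0.882 and 0.931 in DTP. HCC2935 had 0.889, 0.922 and 0.926 in DMSO, 0.642, 0.756 and 0.642 in acute osimertinib and 0.892, 0.93 and 0.932 in DTP. HCC827 had 1.33, 1.4 and 1.42, 1.16, 1.28 and 1.23 and 0.993, 1.14 and 0.88 in these arms. DTP libraries overlapped DMSO libraries in HCC2935 and H1975 and lay below them in PC9 and HCC827.

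KRT7, a type II keratin of glandular and ductal epithelia, was at 1668, 1264 and 1571 TPM in H1975 DMSO, 2290.2, 3245 and 2543 TPM in acute osimertinib, 819, 677 and 734 TPM in DTP and 508, 515 and 546 TPM in long washout. Acute libraries were the highest and long washout libraries the lowest of these 4 arms. It rose in acute osimertinib (log2 fold change 0.88 ± 0.17 SE, edgeR adjusted p = 0.00050, no overlap) and fell in DTP (log2 fold change -1.0 ± 0.17 SE, edgeR adjusted p = 0.00018, no overlap) and in long washout against DMSO (log2 fold change -1.49 ± 0.17 SE, edgeR adjusted p = 6.5e-06, no overlap). In PC9 its group means ran from 1791 TPM in long washout to 2275 TPM in short washout. PC9 DTP against DMSO passed (log2 fold change -0.24 ± 0.08 SE, edgeR adjusted p = 0.015, overlapping libraries), but limma gave a log2 fold change of 0.014, in the other direction, and the call ended by limma on log2 TPM (0.87), with all 60 libraries in 1 fit (0.32), without DMSO replicate 1 (0.056) and without DTP replicate 2 (0.069). KRT7's PC9 acute effect (log2 fold change 0.20 ± 0.08 SE, edgeR adjusted p = 0.040, no overlap) also ended, with RLE size factors (0.075), with no filter (0.056), by DESeq2 (0.072), by limma on log2 TPM (0.054), with all 60 libraries in 1 fit (0.50), without DMSO replicate 2 (0.078), without DMSO replicate 3 (0.15), without acute osimertinib replicate 2 (0.080) and without acute osimertinib replicate 3 (0.13). The KRT7 effects differed between lines (edgeR adjusted p = 0.0056 for acute osimertinib and 0.013 for DTP), with H1975 at the log2 fold changes above. The acute call ended without replicate 1 or 2 of each group (highest adjusted p 0.067) and the DTP call without replicate 3 (0.19).

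KRT19 is the smallest type I keratin and has no fixed partner. In PC9 it was at 1119, 1286 and 1250.0 TPM in DMSO, 3028, 3137 and 3182 TPM in acute osimertinib and 1972, 2102 and 2171 TPM in DTP. In HCC2935 it was at 2944, 3178 and 2695 TPM, 1465, 1500.0 and 1467 TPM and 1578, 1655 and 1887 TPM. All treated libraries of PC9 were above DMSO and all of HCC2935 below it. KRT19 rose in PC9 in acute osimertinib (log2 fold change 1.38 ± 0.07 SE, edgeR adjusted p = 7.9e-09, no overlap) and DTP (log2 fold change 0.52 ± 0.07 SE, edgeR adjusted p = 9.3e-06, no overlap). H1975 rose in acute osimertinib (log2 fold change 0.70 ± 0.13 SE, edgeR adjusted p = 0.00041, no overlap). In HCC2935 it fell in both (log2 fold change -0.95 ± 0.12 SE in acute osimertinib, edgeR adjusted p = 1.2e-05; -0.93 ± 0.12 SE in DTP, edgeR adjusted p = 1.1e-05; no overlap in either). HCC827 fell in DTP (log2 fold change -0.89 ± 0.18 SE, edgeR adjusted p = 0.00099, no overlap). So did H1975 (log2 fold change -0.38 ± 0.13 SE, edgeR adjusted p = 0.023, overlapping libraries), which ended with only the 6 libraries compared (0.077), without DMSO replicate 1 (0.11), without DMSO replicate 3 (0.070), without DTP replicate 2 (0.074) and without DTP replicate 3 (0.053). The interaction test gave edgeR adjusted p = 1.6e-08 for acute osimertinib and 8.6e-05 for DTP, with log2 fold changes from -0.95 ± 0.12 in HCC2935 to 1.38 ± 0.07 in PC9 for the first.

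**Figure D4:**
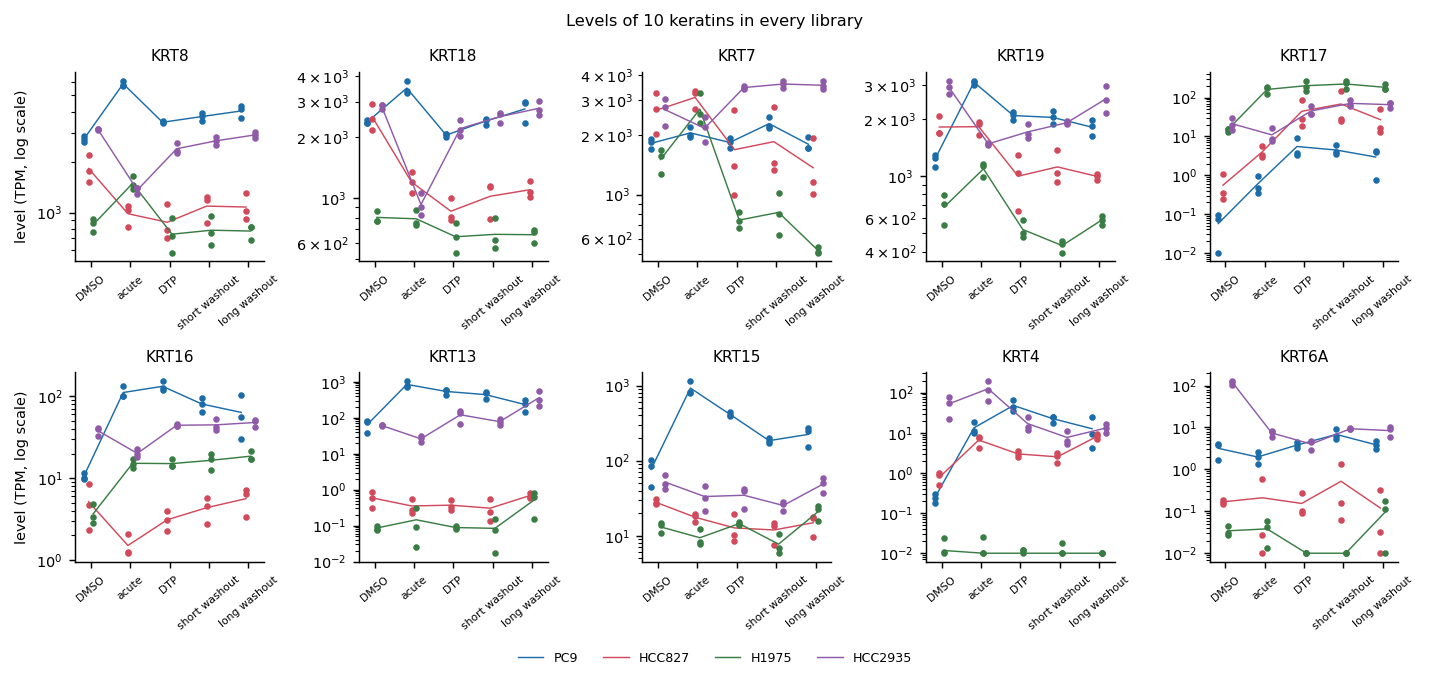
Level of 10 keratins in every library (vertical axis, TPM on a log scale) by arm (horizontal axis), with a colour for each line; points are libraries, lines join the means of 3, and values below 0.01 TPM are drawn at 0.01. KRT8 and KRT18 part by line in acute osimertinib, and KRT13, KRT15, KRT4, KRT16, KRT17 and KRT6A span several powers of 10.

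Among basal layer keratins, KRT15 (type I) stood out in PC9. It was at 44.1, 83.9 and 101 TPM in DMSO, 1149, 829 and 795 TPM in acute osimertinib, 390.2, 448 and 407 TPM in DTP, 184, 170.0 and 200.5 TPM in short washout and 249.8, 152 and 269.9 TPM in long washout. Every library of the later arms was above every DMSO library, and the acute libraries were the highest. KRT15 rose in PC9 in acute osimertinib (log2 fold change 3.62 ± 0.26 SE, edgeR adjusted p = 8.4e-08, no overlap) and DTP (log2 fold change 2.19 ± 0.25 SE, edgeR adjusted p = 3.0e-06, no overlap). It fell in HCC827 in DTP (log2 fold change -1.19 ± 0.28 SE, edgeR adjusted p = 0.0037, no overlap) and in HCC2935 DTP (log2 fold change -0.72 ± 0.25 SE, edgeR adjusted p = 0.022, overlapping libraries), the latter not by limma on log2 TPM (0.078), without DMSO replicate 3 (0.097) and without DTP replicate 1 (0.10). Its acute and DTP effects differed between lines (edgeR adjusted p = 2.9e-08 and 1.3e-06), the first with log2 fold changes of 3.62 ± 0.26 in PC9 and -0.74 ± 0.28 in HCC827. KRT5, the type II keratin of basal cells, was at 56.5, 43.7 and 64.2 TPM in PC9 DMSO and 138, 83.6 and 111 TPM in acute osimertinib, all acute libraries being higher (log2 fold change 1.03 ± 0.22 SE, edgeR adjusted p = 0.00082, no overlap). In PC9 DTP, KRT5 was also higher than in DMSO (log2 fold change 0.60 ± 0.22 SE, edgeR adjusted p = 0.024, no overlap), a call that ended with all 60 libraries in 1 fit (0.097), without DMSO replicate 1 (0.0503), without DMSO replicate 2 (0.11) and without DTP replicate 3 (0.18). KRT5 was also called higher in HCC2935 DTP, at a low level, with 4, 10 and 5 counts in DMSO and 29, 40 and 17 in DTP. In HCC2935 it passed the filter on counts mainly through the arms where it was higher. No conclusion is drawn from that call. KRT5 was there at 0.158, 0.456 and 0.216 TPM in DMSO and 1.34, 1.74 and 0.911 TPM in DTP. The KRT5 acute effect was not shown to differ between lines (edgeR adjusted p = 0.29, PC9 at the value above). KRT14, its type I partner, was barely measured in PC9 DMSO, with 1 or 2 counts in each library, and was at 1.31, 0.679 and 0.501 TPM in acute osimertinib. In HCC2935 it was at 8.54, 12.9 and 8.06 TPM in DMSO and 2.49, 2.23 and 2.39 TPM in acute osimertinib and fell (log2 fold change -2.01 ± 0.34 SE, edgeR adjusted p = 0.00017, no overlap), as in DTP (log2 fold change -1.89 ± 0.34 SE, edgeR adjusted p = 0.00021, no overlap).

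Of the wound and stress keratins, acute osimertinib had 2 higher and 1 lower of 4 (median 1.27) in PC9 and 1 higher and 1 lower of 2 (median 0.48) in HCC827. H1975 had 2 higher and 0 lower of 2 (median 2.78) and HCC2935 0 higher and 4 lower of 4 (median -2.18), beside the shares of all genes given above. KRT6A, a type II keratin induced at wound edges, was at 105, 122 and 128 TPM in HCC2935 DMSO, 5.78, 7.94 and 8.43 TPM in acute osimertinib and 4.38, 4.71 and 2.97 TPM in DTP. All treated libraries were far below the DMSO libraries, and KRT6A fell in acute osimertinib (log2 fold change -3.97 ± 0.20 SE, edgeR adjusted p = 4.0e-09, no overlap) and in DTP (log2 fold change -5.02 ± 0.21 SE, edgeR adjusted p = 1.5e-10, no overlap). In PC9 its acute effect did not pass (log2 fold change -0.67 ± 0.32 SE, edgeR adjusted p = 0.074, overlapping libraries), and the effects differed between lines (edgeR adjusted p = 2.8e-05 for acute osimertinib, 0.053 by limma, and 9.1e-09 for DTP, with HCC2935 at the values above). KRT6B, nearly alike in sequence, was at 12.6, 10.4 and 16.7 TPM in PC9 DMSO and 0.937, 0.521 and 1.17 TPM in acute osimertinib, a fall (log2 fold change -3.91 ± 0.31 SE, edgeR adjusted p = 1.5e-07, no overlap). In HCC2935 it had 13, 17 and 20 counts in DMSO, 0, 1 and 3 in acute osimertinib and 3, 1 and 1 in DTP. In HCC2935, KRT6B was at most 0.155 TPM outside DMSO, so it passed the filter on counts there through DMSO alone. The filter thus favoured these falls, and no test of them is drawn on, though KRT6B is among the 4 counted as lower above. Its DTP level in PC9 was 0.734, 0.725 and 0.776 TPM, also lower than DMSO (log2 fold change -4.40 ± 0.32 SE, edgeR adjusted p = 1.7e-07, no overlap). KRT6B was at most 0.09 TPM in any HCC827 library and 0.0566 in any H1975 library, too low to be tested in either. In the fits to all 4 lines its effect was not shown to differ between lines (edgeR adjusted p = 0.10 for acute osimertinib and 0.31 for DTP, with PC9 as given). The acute difference did pass with all 60 libraries in 1 fit, by limma and by DESeq2, and the DTP difference by limma (0.03).

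KRT16, the type I partner of KRT6A, was at 9.9, 11.6 and 10.2 TPM in PC9 DMSO, 133, 101 and 99.5 TPM in acute osimertinib and 118, 125 and 154 TPM in DTP. In H1975 it was at 4.82, 2.85 and 3.4 TPM, 15, 13.5 and 17.1 TPM and 16.9, 14.1 and 14.2 TPM. Treated libraries of both lines were all above DMSO. KRT16 rose in acute osimertinib in PC9 (log2 fold change 3.41 ± 0.31 SE, edgeR adjusted p = 3.7e-07, no overlap) and H1975 (log2 fold change 2.07 ± 0.22 SE, edgeR adjusted p = 4.6e-06, no overlap). It fell in HCC827 (log2 fold change -1.84 ± 0.47 SE, edgeR adjusted p = 0.0063, no overlap) and HCC2935 (log2 fold change -0.88 ± 0.14 SE, edgeR adjusted p = 9.0e-05, no overlap). In DTP it rose in PC9 (log2 fold change 3.39 ± 0.31 SE, edgeR adjusted p = 5.4e-07, no overlap) and H1975 (log2 fold change 2.04 ± 0.22 SE, edgeR adjusted p = 5.4e-06, no overlap). The lines differed (edgeR adjusted p = 1.6e-08 for the acute effects just given and 9.3e-08 for DTP).

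KRT17, a type I keratin of stressed epithelium and of basal cells, was high in H1975 DTP, at 192, 152 and 269 TPM against 16, 15.9 and 12.8 TPM in DMSO and 176, 192 and 121 TPM in acute osimertinib. In HCC827 it was at 1.07, 0.353 and 0.241 TPM in DMSO, 5.76, 3.34 and 3.01 TPM in acute osimertinib and 86.3, 18.7 and 28.5 TPM in DTP. DTP libraries were above all DMSO libraries in both lines. KRT17 rose in H1975 in acute osimertinib (log2 fold change 3.49 ± 0.26 SE, edgeR adjusted p = 7.4e-07, no overlap) and DTP (log2 fold change 3.80 ± 0.27 SE, edgeR adjusted p = 2.2e-07, no overlap). HCC827 was higher in DTP (log2 fold change 6.26 ± 0.97 SE, no overlap). Its DMSO libraries held 21, 8 and 6 counts of KRT17, which passed the filter on counts there mainly through the treated arms. The filter thus favoured the rises of KRT17 in HCC827, and no conclusion is drawn from their tests. KRT17's HCC827 acute call (log2 fold change 2.80 ± 1.02 SE, edgeR adjusted p = 0.042, no overlap) ended without DMSO replicate 2 (0.13), without DMSO replicate 3 (0.12), without acute osimertinib replicate 1 (0.12), without acute osimertinib replicate 2 (0.066) and without acute osimertinib replicate 3 (0.054). In HCC2935 it was lower in acute osimertinib (log2 fold change -0.91 ± 0.31 SE, edgeR adjusted p = 0.023, overlapping libraries), a call that ended with all 60 libraries in 1 fit (0.15), without DMSO replicate 2 (0.14), without acute osimertinib replicate 1 (0.092) and without acute osimertinib replicate 3 (0.11). KRT17's HCC2935 DTP call, in the other direction (log2 fold change 0.95 ± 0.29 SE, edgeR adjusted p = 0.013, no overlap), ended with all 60 libraries in 1 fit (0.12), without DMSO replicate 3 (0.061) and without DTP replicate 2 (0.080). PC9 DMSO libraries held 0, 5 and 3 counts of KRT17, and its level there was 3.42, 3.81 and 9.28 TPM in DTP. The effects differed between lines (edgeR adjusted p = 4.0e-06 for acute osimertinib and 2.8e-05 for DTP, with H1975 at the values above).

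Of the suprabasal keratins, acute osimertinib had 4 higher and 1 lower of 7 (median 1.84) in PC9 and 1 higher and 0 lower of 4 (median 0.31) in HCC827. H1975 had 1 higher and 0 lower of 3 (median 0.76) and HCC2935 2 higher and 3 lower of 6 (median -0.36). These shares stand beside those of all genes given above, which those of HCC827 and H1975 were near. KRT13, the type I keratin of moist stratified linings, was expressed in PC9 and HCC2935. In PC9 it was at 37.5, 83.8 and 75.1 TPM in DMSO, 1057, 787 and 706 TPM in acute osimertinib, 436, 591 and 594 TPM in DTP and 239.9, 142 and 320.4 TPM in long washout. In HCC2935 it was at 63.8, 61.9 and 57.7 TPM in DMSO, 26.8, 20.7 and 30.4 TPM in acute osimertinib, 69.1, 139 and 156 TPM in DTP and 312, 210.1 and 564 TPM in long washout. The highest PC9 libraries were acute ones, and the highest HCC2935 libraries were those of long washout. KRT13 rose in PC9 in acute osimertinib (log2 fold change 3.72 ± 0.31 SE, edgeR adjusted p = 2.2e-07, no overlap) and DTP (log2 fold change 2.79 ± 0.30 SE, edgeR adjusted p = 2.0e-06, no overlap). KRT13 fell in HCC2935 in acute osimertinib (log2 fold change -1.20 ± 0.32 SE, edgeR adjusted p = 0.0063, no overlap). KRT13's HCC2935 DTP call (log2 fold change 0.84 ± 0.31 SE, edgeR adjusted p = 0.033, no overlap) ended without DMSO replicate 1 (0.061), without DMSO replicate 2 (0.069), without DMSO replicate 3 (0.090), without DTP replicate 2 (0.099) and without DTP replicate 3 (0.14). In long washout against DMSO it rose in HCC2935 (log2 fold change 2.48 ± 0.32 SE, edgeR adjusted p = 1.7e-05, no overlap). The lines differed (edgeR adjusted p = 1.4e-08 for acute osimertinib and 8.7e-05 for DTP, with the effects just given).

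KRT4, its type II partner, was at 0.175, 0.303 and 0.232 TPM in PC9 DMSO, 19.1, 9.91 and 11 TPM in acute osimertinib and 35.6, 43.3 and 64.9 TPM in DTP. HCC2935 had 55.8, 78.9 and 22.6 TPM in DMSO, 116, 195 and 63.3 TPM in acute osimertinib and 11.8, 25.4 and 13.7 TPM in DTP. Treated PC9 libraries were all above DMSO, while HCC2935 groups overlapped. KRT4 rose in PC9 in acute osimertinib (log2 fold change 5.79 ± 0.62 SE, edgeR adjusted p = 1.5e-06, no overlap) and DTP (log2 fold change 7.36 ± 0.63 SE, edgeR adjusted p = 3.8e-07, no overlap). HCC827 rose in acute osimertinib (log2 fold change 2.99 ± 0.33 SE, edgeR adjusted p = 9.2e-06, no overlap) and DTP (log2 fold change 1.89 ± 0.32 SE, edgeR adjusted p = 0.00031, no overlap). It fell in HCC2935 DTP (log2 fold change -1.79 ± 0.46 SE, edgeR adjusted p = 0.0040, overlapping libraries). KRT4's acute call there (log2 fold change 1.30 ± 0.44 SE, edgeR adjusted p = 0.025, overlapping libraries) ended with only the 6 libraries compared (0.052), without DMSO replicate 1 (0.055), without DMSO replicate 3 (0.090) and without acute osimertinib replicate 2 (0.17). The lines differed in both (edgeR adjusted p = 0.00020 and 2.3e-09, with these effects).

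KRT78, a type II keratin of differentiated stratified epithelium, was at 33.5, 47.4 and 33.9 TPM in HCC2935 DMSO, 16.6, 21.6 and 15.6 TPM in acute osimertinib and 0.849, 1.61 and 3.21 TPM in DTP, and the DTP libraries were the lowest of these. It fell in HCC2935 DTP (log2 fold change -4.51 ± 0.37 SE, edgeR adjusted p = 9.0e-08, no overlap) and in PC9 in acute osimertinib (log2 fold change -1.52 ± 0.30 SE, edgeR adjusted p = 0.00045, no overlap) and DTP (log2 fold change -2.09 ± 0.31 SE, edgeR adjusted p = 3.3e-05, no overlap). KRT78's acute call in HCC2935 (log2 fold change -1.05 ± 0.30 SE, edgeR adjusted p = 0.0095, no overlap) ended with all 60 libraries in 1 fit (0.091) and without DMSO replicate 2 (0.058). Between lines its DTP effect differed (edgeR adjusted p = 0.0090, HCC2935 as given), though not without replicate 2 of each group (0.13). KRT80, a type II keratin of several epithelia, was at 67.5, 64 and 59.9 TPM in PC9 DMSO and 134, 110.2 and 128 TPM in DTP, and rose there (log2 fold change 0.71 ± 0.12 SE, edgeR adjusted p = 0.00016, no overlap). In H1975 it rose in acute osimertinib (log2 fold change 0.98 ± 0.17 SE, edgeR adjusted p = 0.00030, no overlap) and DTP (log2 fold change 0.63 ± 0.17 SE, edgeR adjusted p = 0.0070, no overlap). HCC2935 went lower in acute osimertinib (log2 fold change -0.56 ± 0.18 SE, edgeR adjusted p = 0.018, overlapping libraries), which ended without DMSO replicate 1 (0.058), without DMSO replicate 2 (0.10) and without acute osimertinib replicate 3 (0.089). KRT80 was higher there in DTP (log2 fold change 0.54 ± 0.18 SE, edgeR adjusted p = 0.020, no overlap), which ended with all 60 libraries in 1 fit (0.071), without DMSO replicate 3 (0.098) and without DTP replicate 1 (0.054). KRT80's acute effect differed between lines (edgeR adjusted p = 0.0013, H1975 as given) and its DTP effect was not shown to (0.95). KRT10, a type I keratin of the upper epidermis, stayed between 7.66 and 22.1 TPM in all 60 libraries, and its type II partner KRT1 had too few counts to be tested. The KRT10 effects were not shown to differ between lines (edgeR adjusted p = 0.71 for acute osimertinib, with log2 fold changes of 0.02 ± 0.10 in PC9 and -0.15 ± 0.14 in HCC2935). KRT3, a type II keratin of the cornea, was low, at 0.0602, 0.0234 and 0.116 TPM in PC9 DMSO and 0.279, 0.221 and 0.207 TPM in acute osimertinib, or 4, 2 and 8 counts against 19, 19 and 15, a call (log2 fold change 1.84 ± 0.58 SE, edgeR adjusted p = 0.012, no overlap) that ended without DMSO replicate 2 (0.064). In HCC2935, where most keratins called were lower, KRT3 was at 0.358, 0.126 and 0.164 TPM in DMSO and 1.14, 1.25 and 1.07 TPM in acute osimertinib, the group in which it counts as expressed. That rise (log2 fold change 2.43 ± 0.73 SE, edgeR adjusted p = 0.012, no overlap) ended by limma on log2 TPM (0.091) and without DMSO replicate 2 (0.058). In both lines KRT3 passed the filter on counts mainly through acute osimertinib, where it was highest. The filter thus favoured these rises, and no conclusion is drawn from their tests.

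Of the remaining type I keratins, KRT20 is known from gut epithelium and urothelium and KRT23 from several simple epithelia. KRT20 was at 2.21, 2.39 and 5.99 TPM in HCC2935 DMSO and 0.162, 0.187 and 0.225 TPM in acute osimertinib, with no overlap. In HCC827 its DMSO libraries held 3, 1 and 1 counts, and its level was 0.611, 0.792 and 1.16 TPM in DTP and 10.5, 3.76 and 0.623 TPM in long washout. In HCC2935, KRT20 was lower in acute osimertinib (log2 fold change -4.08 ± 0.73 SE, no overlap), with 4 counts in each acute library. At 0.0882, 0.211 and 0 TPM it was below DMSO in DTP too, with no overlap. Outside DMSO it was at most 0.389 TPM in any HCC2935 library, so it passed the filter on counts there through DMSO alone. The filter thus favoured these falls, and no test of them is drawn on. The acute effect passed the test between lines (edgeR adjusted p = 0.0018, HCC2935 as given), though not without replicate 3 of each group (0.073). The DTP effect passed as well (0.00062). Both tests hold the same HCC2935 DMSO libraries, so no conclusion is drawn from them. KRT23 was at 4.7, 13.3 and 12.3 TPM in PC9 DMSO, 37.3, 39.5 and 32.7 TPM in acute osimertinib and 39.6, 37.3 and 35.1 TPM in DTP, all treated libraries being higher. It rose in acute osimertinib (log2 fold change 1.87 ± 0.33 SE, edgeR adjusted p = 0.00015, no overlap) and in DTP (log2 fold change 1.63 ± 0.33 SE, edgeR adjusted p = 0.00045, no overlap). KRT23's acute effect differed between lines (edgeR adjusted p = 0.0065, PC9 as given), but not without replicate 1 of each group or by limma (at most 0.082).

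Hair keratins were low. KRT81, a type II hair keratin, was at 6.3, 4.05 and 4.99 TPM in H1975 DMSO, 6.89, 22.9 and 14.1 TPM in acute osimertinib and 0.287, 0.216 and 0.414 TPM in DTP, where all 3 libraries were below DMSO. It fell in H1975 DTP (log2 fold change -4.05 ± 0.53 SE, edgeR adjusted p = 2.5e-05, no overlap). KRT81's acute call (log2 fold change 1.54 ± 0.44 SE, edgeR adjusted p = 0.0083, no overlap) ended without acute osimertinib replicate 2 (0.068). In HCC827 DTP it was higher than in DMSO (log2 fold change 1.27 ± 0.39 SE, edgeR adjusted p = 0.017, no overlap), which did not hold with only the 6 libraries compared (0.073), without DMSO replicate 2 (0.066), without DMSO replicate 3 (0.061) and without DTP replicate 3 (0.079). In PC9 DTP it was lower (log2 fold change -0.83 ± 0.32 SE, edgeR adjusted p = 0.033, no overlap), which ended by limma on log2 TPM (0.098), with all 60 libraries in 1 fit (0.074), without DMSO replicate 3 (0.096), without DTP replicate 2 (0.051) and without DTP replicate 3 (0.11). Its effects differed between lines (edgeR adjusted p = 0.0039 for acute osimertinib, up to 0.18 without replicate 2 or 3 of each group, and 3.3e-06 for DTP, with H1975 as given). HCC827 was as given for DTP, and its acute effect did not pass (log2 fold change 0.87 ± 0.39 SE, edgeR adjusted p = 0.094, overlapping libraries). KRT34, its type I partner in hair, was higher in DTP than in DMSO in HCC827 (log2 fold change 1.83 ± 0.66 SE, edgeR adjusted p = 0.036, no overlap), though not without DMSO replicate 1 (0.062), without DMSO replicate 2 (0.066), without DMSO replicate 3 (0.13), without DTP replicate 1 (0.15) and without DTP replicate 3 (0.053). In PC9 DTP it was higher (log2 fold change 1.19 ± 0.42 SE, edgeR adjusted p = 0.021, no overlap), which ended with all 60 libraries in 1 fit (0.055), without DMSO replicate 1 (0.085) and without DTP replicate 1 (0.095). HCC2935 DMSO libraries held 2, 4 and 1 counts of KRT34, and its DTP level was 0.568, 0.25 and 0.801 TPM. In PC9 it was lower in acute osimertinib (log2 fold change -1.68 ± 0.47 SE, edgeR adjusted p = 0.0062, overlapping libraries). Between lines the KRT34 acute effect passed by a narrow margin (edgeR adjusted p = 0.041, with log2 fold changes of -1.68 ± 0.47 in PC9), and without replicate 1, 2 or 3 of each group, or with no filter, it did not (at most 0.33).

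After 24 h of washout, few keratins differed from DTP. PC9 had 2 higher and 1 lower of 25, against 3.87% and 2.05% of all genes: KRT6B (log2 fold change 1.68 ± 0.31 SE, edgeR adjusted p = 0.010, no overlap), KRT7 (log2 fold change 0.33 ± 0.08 SE, edgeR adjusted p = 0.030, no overlap) and KRT15 (log2 fold change -1.16 ± 0.24 SE, edgeR adjusted p = 0.017, no overlap). Not all 3 calls held when a library was left out. Of them, 2 remained without DTP replicate 1, 1 without DTP replicate 3 or short washout replicate 1, and 0 without DTP replicate 2 or short washout replicate 2. DESeq2 called 5 and a fit to the 6 libraries alone 8. The KRT15 call ended without DTP replicate 2 (0.078), without DTP replicate 3 (0.052), without short washout replicate 1 (0.061) and without short washout replicate 2 (0.083). KRT6B was lost without DTP replicate 2 (0.059) and without short washout replicate 2 (0.054). KRT7 was lost with all 60 libraries in 1 fit (0.44), without DTP replicate 1 (0.061), without DTP replicate 2 (0.13), without DTP replicate 3 (0.056), without short washout replicate 1 (0.11) and without short washout replicate 2 (0.083). HCC2935 had 1 higher and 0 lower of 22, against 2.32% and 0.816% of all genes: KRT6A, from 4.38, 4.71 and 2.97 TPM in DTP to 9.7, 8.95 and 9.33 TPM in short washout (log2 fold change 1.22 ± 0.20 SE, edgeR adjusted p = 0.0039, no overlap), a call that ended with all 60 libraries in 1 fit (0.12). In HCC827 edgeR called 0 of 14, against 0% in either direction of all genes; 0 had an unadjusted p under 0.05, and DESeq2 and limma called 0. In H1975 edgeR called 0 of 14, against 0.0585% higher and 0% lower of all genes; 3 had an unadjusted p under 0.05, DESeq2 called 2 (KRT15 and KRT81) and limma 0. Same-numbered libraries of DTP and short washout deviated together in H1975, and with the replicate as a block in the 6 libraries, chosen after seeing the data, 1 was higher and 2 lower of 10, against 6.7% and 4.87% of 14665 genes in the same fit: KRT15 (log2 fold change -0.98 ± 0.15 SE, edgeR adjusted p = 0.0024), KRT19 (log2 fold change -0.32 ± 0.07 SE, edgeR adjusted p = 0.010) and KRT81 (log2 fold change 2.01 ± 0.38 SE, edgeR adjusted p = 0.0067).

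Long washout differed from DTP in the keratins of PC9 and HCC2935. PC9 had 2 higher and 4 lower of 25, against 20.4% and 16.8% of all genes, so no larger a share than at large: KRT8 and KRT18 were higher and KRT4, KRT13, KRT15 and KRT16 lower. KRT13 fell (log2 fold change -1.14 ± 0.28 SE, edgeR adjusted p = 0.0074, no overlap) and KRT18 rose (log2 fold change 0.52 ± 0.10 SE, edgeR adjusted p = 0.0019, no overlap). KRT4 fell (log2 fold change -1.89 ± 0.44 SE, edgeR adjusted p = 0.0050, no overlap), though not with only the 6 libraries compared (0.0502). The KRT8 call ended with only the 6 libraries compared (0.068) and with all 60 libraries in 1 fit (0.12). KRT15 was lost without DTP replicate 2 (0.053) and without long washout replicate 2 (0.078). KRT16 was lost with only the 6 libraries compared (0.079), without DTP replicate 3 (0.051) and without long washout replicate 1 (0.051). The 6 calls became 3 with only the 6 libraries compared and 9 without long washout replicate 3. HCC2935 had 7 higher and 0 lower of 22, against 6.82% and 4.94%, 4 with only the 6 libraries compared or with all 60 in 1 fit. KRT13 (log2 fold change 1.64 ± 0.31 SE, edgeR adjusted p = 0.0035, no overlap) and KRT19 (log2 fold change 0.64 ± 0.12 SE, edgeR adjusted p = 0.0035, no overlap) rose. KRT5 was at 1.34, 1.74 and 0.911 TPM in DTP and 8.88, 2.53 and 6.85 TPM in long washout, with a call (log2 fold change 2.25 ± 0.51 SE, edgeR adjusted p = 0.010, no overlap) that ended by limma on log2 TPM (0.058). In HCC827 edgeR called 0 of 14, against 0% in either direction; 2 had an unadjusted p under 0.05, DESeq2 called 1 (KRT4) and limma 0. In H1975 edgeR called 0 of 14, against 0% higher and 0.0065% lower; 3 had an unadjusted p under 0.05, and DESeq2 and limma called 0. Whether washout effects differed between the lines was not tested.

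Long washout was last compared with DMSO. PC9 had 15 higher and 2 lower of 25, against 23.4% and 21.5% of all genes, with a median log2 fold change of 0.72 against 0.02; by limma on log2 TPM the split was 16 and 2, beside 31.6% and 12.8%. PC9 had 11 calls with at least 10 counts in all libraries. HCC827 had 4 and 5 of 14, against 21.9% and 20%, and H1975 5 and 2 of 14, against 27.3% and 26%, together near the share of all genes in H1975. HCC2935 had 7 and 6 of 22, against 22.5% and 20.8%, a split that was 9 and 5 by limma on log2 TPM, beside 26.3% and 15.6%, and 7 and 9 by DESeq2. Some keratins that differed from DMSO in the drug were still apart from it, with the same DMSO libraries in each comparison. KRT17 in HCC827 was at 16.1, 13 and 52.2 TPM in long washout (log2 fold change 5.55 ± 0.97 SE, no overlap), all above DMSO. The limit from the filter on counts given above for KRT17 in HCC827 holds here too. KRT16 in PC9 was at 56.3, 30 and 104 TPM (log2 fold change 2.38 ± 0.30 SE, edgeR adjusted p = 3.8e-05, no overlap). KRT6A in HCC2935 was at 6.06, 10.2 and 9.0 TPM, all below DMSO (log2 fold change -3.91 ± 0.20 SE, edgeR adjusted p = 8.4e-10, no overlap).

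Already in DMSO the lines differed in their keratins: 21 of 21 tested keratins passed the test between the 12 DMSO libraries, with a highest adjusted p of 0.0029 by edgeR, against 91.2% of 15214 genes, so this is little more than holds for genes at large, and 9 passed with at least 10 counts in all libraries. KRT6A, for one, was at 105 to 128 TPM in HCC2935 DMSO and at 0.0274 to 0.0449 TPM in H1975 DMSO. The ratio of type I to type II TPM, a description with no test, went from 0.447 in H1975 acute osimertinib replicate 2 to 1.10 in PC9 acute osimertinib replicate 1. In PC9 DMSO it was 0.752, 0.82 and 0.848 and in acute osimertinib 1.1, 1.05 and 1.02, with no overlap. Without KRT18 and KRT8, the most abundant of each type in both groups, the mean PC9 ratio was 0.719 in DMSO and 2.26 in acute osimertinib, or 3.15 times as high against 1.31 times with them. In HCC2935 it was 0.943, 0.945 and 1.02 in DMSO and 0.643, 0.629 and 0.732 in acute osimertinib, again apart but lower. The means were 0.965 and 0.712 in HCC827 and 0.638 and 0.488 in H1975. In HCC827 the ratio in acute osimertinib over that in DMSO was 0.738, and 1.06 without the most abundant keratin of each type, which for type I was KRT18 in DMSO and KRT19 in acute osimertinib.

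Keratin genes lie in 2 clusters, which the rule for choosing them did not use. The 28 members on chromosome 17, which are KRT222 and the type I keratins other than KRT18, span 970 kb. The 26 on chromosome 12, the type II keratins and KRT18, span 784 kb. KRT13, KRT15 and KRT19, which rose in PC9 under acute osimertinib, lie within 27.3 kb, and KRT14, KRT16 and KRT17 within 42.3 kb. Promoters of 34 of the 54 keratins (7 of the 22 with values above) were matched by symbol in a table of RefSeq promoters, build GRCh38.p14. Those of KRT4, KRT5 and KRT10 are shown for the 250 bases before the start, because KRT4 and KRT5 rose in PC9 under acute osimertinib and KRT10 did not pass there. Capitals mark the letters TATAA, and all 3 are on the minus strand, at chr12:52814117-52814366, chr12:52520395-52520644 and chr17:40822615-40822864.
KRT4: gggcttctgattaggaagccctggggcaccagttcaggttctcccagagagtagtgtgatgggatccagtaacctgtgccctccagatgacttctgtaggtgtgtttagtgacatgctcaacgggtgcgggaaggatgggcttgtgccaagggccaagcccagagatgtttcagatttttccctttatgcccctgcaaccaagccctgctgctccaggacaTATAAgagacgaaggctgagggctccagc
KRT5: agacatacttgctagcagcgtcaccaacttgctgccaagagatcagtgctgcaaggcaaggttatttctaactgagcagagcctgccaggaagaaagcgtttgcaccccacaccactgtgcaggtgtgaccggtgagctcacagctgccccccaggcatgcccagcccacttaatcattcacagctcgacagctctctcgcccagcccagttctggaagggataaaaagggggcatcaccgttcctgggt
KRT10: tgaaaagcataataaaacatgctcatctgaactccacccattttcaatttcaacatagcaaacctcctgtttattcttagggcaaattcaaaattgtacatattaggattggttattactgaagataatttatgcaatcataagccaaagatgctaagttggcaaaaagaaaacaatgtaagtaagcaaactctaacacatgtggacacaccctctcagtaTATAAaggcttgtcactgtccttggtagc
The motif TATAA begins 29 bases before the start in KRT4 and KRT10, and these letters are not in the KRT5 window. Searched on both strands, TATAA was in 25 of 34 keratin promoters and 19.6% of all 27305, TGANTCA in 0 of 34 and 6.60%, and GGGCGG in 4 of 34 and 42.3%. A match describes the letters and is not a site.

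Genes that work with keratins were counted from lists, in acute osimertinib first. Of all genes there, 34.5% were higher and 31.7% lower in PC9 (median 0.07), 18.7% and 20.2% in HCC827 (0.02), 27.8% and 23.8% in H1975 (0.10) and 24.9% and 22.2% in HCC2935 (0.07). Desmosome and hemidesmosome proteins that anchor keratin filaments had 9 higher and 3 lower of 16 (median 0.56) in PC9 and 3 higher and 1 lower of 17 (median 0.25) in HCC827. H1975 had 6 higher and 2 lower of 15 (median 0.39) and HCC2935 1 higher and 9 lower of 17 (median -0.45). ITGA6, an integrin subunit of hemidesmosomes, went from 282 to 11.7 TPM in PC9 (log2 fold change -4.58 ± 0.25 SE, edgeR adjusted p = 1.0e-08, means of 3 libraries). Cornified envelope genes, which seal the outer epidermis, had 6 higher and 1 lower of 14 (median 0.87) in PC9 and 1 higher and 0 lower of 10 (median 0.14) in HCC827. H1975 had 5 higher and 1 lower of 12 (median 0.84) and HCC2935 1 higher and 7 lower of 14 (median -1.57). SPRR1B, an envelope precursor, went from 384 to 31.8 TPM in HCC2935 (log2 fold change -3.56 ± 0.34 SE, edgeR adjusted p = 7.6e-07). Transcription factors known to act on keratin genes had 17 higher and 3 lower of 23 (median 0.84) in PC9 and 7 higher and 2 lower of 23 (median 0.32) in HCC827. H1975 had 5 higher and 1 lower of 23 (median 0.25) and HCC2935 3 higher and 8 lower of 23 (median -0.25). Both H1975 shares in the acute arm were below those of all genes. ELF3, an epithelial factor, went from 99.4 to 718 TPM in PC9 (log2 fold change 2.87 ± 0.17 SE, edgeR adjusted p = 2.4e-08). FOSL1, a subunit of AP-1, fell in PC9 (log2 fold change -4.44 ± 0.59 SE, edgeR adjusted p = 1.3e-05). In DTP, against the shares of all genes given in the next paragraph, the anchor list had 10 higher and 3 lower of 16 (median 0.64) in PC9 and 3 higher and 6 lower of 17 (median -0.30) in HCC827. H1975 had 6 higher and 6 lower of 15 (median -0.37) and HCC2935 2 higher and 5 lower of 17 (median -0.19). For the cornified envelope the DTP counts were 8 higher and 0 lower of 14 (median 1.23) in PC9 and 2 higher and 1 lower of 10 (median 0.02) in HCC827. H1975 had 4 higher and 4 lower of 12 (median 0.28) and HCC2935 3 higher and 6 lower of 14 (median -0.54). The transcription factors in DTP had 16 higher and 1 lower of 23 (median 0.54) in PC9 and 3 higher and 5 lower of 23 (median -0.41) in HCC827. H1975 had 3 higher and 12 lower of 23 (median -1.12) and HCC2935 4 higher and 11 lower of 23 (median -0.43).

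Markers of other cell states are given for the same cells. In DTP, 35.7% of all genes were higher and 33.5% lower in PC9 (median 0.06), 23% and 20.4% in HCC827 (0.03), 26% and 25.7% in H1975 (0.02) and 27% and 25.8% in HCC2935 (0.04). Other intermediate filament genes had 1 higher and 8 lower of 10 (median -0.72) in PC9 and 7 higher and 3 lower of 12 (median 1.23) in HCC827. H1975 had 3 higher and 4 lower of 12 (median -0.04) and HCC2935 2 higher and 5 lower of 10 (median -0.33). VIM, the mesenchymal filament, went from 93.7 to 659 TPM in HCC827 (log2 fold change 2.79 ± 0.16 SE, edgeR adjusted p = 4.1e-08). Mesenchymal markers had 4 higher and 3 lower of 9 (median 1.53) in PC9 and 10 higher and 0 lower of 11 (median 2.87) in HCC827. H1975 had 6 higher and 0 lower of 11 (median 1.28) and HCC2935 6 higher and 0 lower of 10 (median 2.05) in DTP. Epithelial markers had 5 higher and 1 lower of 8 (median 0.35) in PC9 and 0 higher and 7 lower of 8 (median -1.74) in HCC827. H1975 had 0 higher and 8 lower of 8 (median -3.75) and HCC2935 2 higher and 5 lower of 8 (median -0.53) in DTP. In acute osimertinib the epithelial markers had 7 higher and 1 lower of 8 (median 0.72) in PC9 and 1 higher and 1 lower of 8 (median 0.16) in HCC827. H1975 had 0 higher and 1 lower of 8 (median 0.19) and HCC2935 1 higher and 0 lower of 8 (median -0.03). CDH1, the adhesion protein of epithelia, went from 84.5 to 2.37 TPM in H1975 DTP (log2 fold change -5.14 ± 0.47 SE, edgeR adjusted p = 1.4e-06). Lung lineage markers had 5 higher and 0 lower of 7 (median 2.18) in PC9 and 1 higher and 2 lower of 7 (median 0.49) in HCC827. H1975 had 1 higher and 0 lower of 6 (median 0.71) and HCC2935 1 higher and 2 lower of 6 (median -0.33) in DTP. Acute osimertinib, with the shares of all genes given in the paragraph above, had mesenchymal markers at 2 higher and 1 lower of 9 (median -0.66) in PC9 and 3 higher and 0 lower of 11 (median 0.96) in HCC827. H1975 had 4 higher and 0 lower of 11 (median 1.11) and HCC2935 2 higher and 0 lower of 10 (median 0.42). Lung lineage markers in the acute arm had 3 higher and 0 lower of 7 (median 1.25) in PC9 and 4 higher and 1 lower of 7 (median 1.37) in HCC827. H1975 had 4 higher and 0 lower of 6 (median 1.31) and HCC2935 2 higher and 0 lower of 6 (median 0.51). The other intermediate filaments had, in the acute arm, 1 higher and 7 lower of 10 (median -0.96) in PC9 and 2 higher and 3 lower of 12 (median -0.33) in HCC827. H1975 had 3 higher and 3 lower of 12 (median -0.21) and HCC2935 1 higher and 5 lower of 10 (median -0.31). Of 6 leukocyte markers 5 were expressed in some group, CD3E was below 1 TPM in every library, and the 6 summed to 10.6 to 181 TPM per library, mostly from CD68 (9.5 to 175 TPM). The 4 endothelial markers summed to 0.322 to 22.4 TPM, and CDH5 (0.0155 to 21.1 TPM) was the most abundant of them in every HCC2935 group. In acute osimertinib they had 1 higher and 1 lower of 4 in PC9, 2 and 0 in HCC827, 3 and 0 in H1975 and 2 and 0 in HCC2935. In DTP the counts were 1 and 1, 1 and 0, 2 and 0, and 0 and 0 in the same order. Leukocyte markers had 1 and 0 of 3, 0 and 0 of 3, 1 and 0 of 5, and 0 and 1 of 3 in acute osimertinib. In DTP they had 1 and 1, 1 and 0, 1 and 3, and 0 and 1. In acute osimertinib and in DTP, 12 of 12 proliferation genes were lower in all 4 lines. The part of these genes in the keratin changes was not tested.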

How the data were processed

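PolyA-selected RNA of 60 libraries was sequenced as paired 150-base reads, and 2 deposited tables of 19712 genes were used: estimated counts, and log2 TPM with a pseudocount of 0.01. Per the authors' processing notes, reads were aligned to hg38 with HISAT2 2.1.0 and the deposited estimated counts were made with Salmon 0.8.2. The deposited log2 TPM values were turned back to TPM for levels. Estimated counts were rounded and tested in R 4.3.3 with edgeR 4.0.16 (filterByExpr, TMM, quasi-likelihood F-test), one fit of 15 libraries per line with 5 group means, and 24 or 12 libraries for tests between lines. P-values were adjusted by Benjamini-Hochberg over all genes tested, and an adjusted p under 0.05 was called. DESeq2 1.42.0 and limma 3.58.1 on the deposited log2 TPM, other filters and scalings, other sets of libraries, a replicate block and leaving out each library were tried. Tables and figures used Python 3.11.15 with numpy 2.4.6, pandas 2.3.3 and matplotlib 3.10.9.

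Values are given for keratins at or above 10 TPM in all 3 libraries of a group, for expressed keratins called in the same comparison with DMSO in 2 or more lines, and for textbook partners of these. Genes of other kinds that are named were among the 3 with the largest change of their list among those called with a mean of at least 10 TPM. The members and the lists were chosen with earlier results of these data known. Replicate numbers were not labelled as pairs. Over genes with at least 40 summed counts, the mean squared difference between replicate libraries was 8.97 to 139 times that of counting error alone in 60 pairs (median 25.6), a value over such genes and not for the keratins alone. The code was tested on simulated data.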

Additional observations from a re-analysis of the deposited data

Results flagged for a closer look

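In the 24 libraries of acute osimertinib and DMSO, edgeR's interaction test between lines passed for 16 of the 21 expressed keratins tested. Of all 15970 genes tested, 40.5% passed. The adjusted p was 1.2e-09 for KRT8, 1.4e-08 for KRT13 and KRT18, 1.6e-08 for KRT16 and KRT19, 2.9e-08 for KRT15, 4e-06 for KRT17, 2.8e-05 for KRT6A, 0.0002 for KRT4, 0.00053 for KRT14, 0.0013 for KRT80, 0.0018 for KRT20, 0.0039 for KRT81, 0.0056 for KRT7, 0.0065 for KRT23 and 0.041 for KRT34. Of these, KRT6A, KRT20 and KRT23 had enough counts for a test within 2 lines only, and KRT4, KRT14 and KRT34 within 3, so their difference is not one between 4 measured effects. KRT20 passed the filter on counts in HCC2935 through DMSO alone, and no conclusion is drawn from its test. For KRT8 the log2 fold changes ran from -1.15 ± 0.09 in HCC2935 to 1.12 ± 0.08 in PC9, with no overlap between treated and DMSO libraries in either line.

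In the 24 libraries of DTP and DMSO, the same test passed for 14 of the 21 expressed keratins tested. Of all 16001 genes tested, 61.6% passed, a like share. The adjusted p was 2.3e-09 for KRT4, 9.1e-09 for KRT6A, 9.3e-08 for KRT16, 1.3e-06 for KRT15, 3.3e-06 for KRT81, 6.5e-06 for KRT18, 2.8e-05 for KRT17, 8.6e-05 for KRT19, 8.7e-05 for KRT13, 0.00016 for KRT14, 0.00062 for KRT20, 0.00095 for KRT8, 0.009 for KRT78 and 0.013 for KRT7. The same limit holds here for KRT6A, KRT20 and KRT78 (tested within 2 lines) and for KRT4 and KRT14 (3 lines). No conclusion is drawn from the KRT20 test here either. For KRT4 the log2 fold changes ran from -1.79 ± 0.46 in HCC2935, with overlapping libraries, to 7.36 ± 0.63 in PC9, with none. Leaving out replicate 1, 2 or 3 of every group ended some of these calls, as given with each gene: acute KRT7, KRT20, KRT23, KRT34 and KRT81, and DTP KRT7, KRT8 and KRT78. A test for single outlying libraries was not run in these groups of 3.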

How the results depend on the processing

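Of 146 called results of single keratins, 102 kept direction and call under every alternative run, 44 were lost under at least 1, and 1 of these turned. The one that turned was KRT7 in PC9 DTP against DMSO, at a log2 fold change of 0.014 by limma on log2 TPM. Counts of keratins called moved by over 1.5 times as follows. PC9 short washout against DTP (3) became 5 by DESeq2 and 8 with only the 6 libraries compared, and 0 to 3 when a library was left out. PC9 long washout against DTP (6) became 3 with only the 6 libraries compared, and PC9 long washout against DMSO (17) became 11 with at least 10 counts in every library. HCC827 long washout against DTP (0) became 1 by DESeq2. H1975 short washout against DTP (0) became 2 by DESeq2, 1 with all 60 libraries in 1 fit, and 3 with the 6 libraries and a replicate block, an alternative added after seeing the data; for HCC827 that block gave 0. HCC2935 DTP against DMSO (16) became 10 to 15 when a library was left out, short washout against DTP (1) became 0 with all 60 libraries, and long washout against DTP (7) became 4 with all 60 and 4 with the 6 compared. With at least 10 counts in every library fewer keratins were tested, and the counts between lines became 8 for acute osimertinib (17), 7 for DTP (15) and 9 for DMSO (21). For the other moved counts the cause was not tested. A replicate block in the fit of each line kept every count within 1 of its value. All 3 correlations of same-numbered libraries reached 0.112 only in short washout against DTP of HCC827 (0.537, 0.240 and 0.336) and H1975 (0.112, 0.272 and 0.217). In acute osimertinib against DMSO of HCC2935 they were also positive, at 0.0853, 0.0257 and 0.193. KRT4, KRT7, KRT15, KRT17 and KRT80, among others, were ordered alike by replicate number in those HCC2935 groups, while KRT13 and KRT16 were not. Whether libraries overlap was judged without regard to replicate number, also for these keratins. The replicate block was fitted to the comparisons within lines and to the tests of acute and DTP effects between lines. For the latter the counts became 18 for acute osimertinib (17) and 14 for DTP (15). It could not be fitted to the DMSO level between lines, where each of the 12 libraries would be a block of its own.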
